A study of Homo sapiens with 12 samples.

Results

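The 5 lysine demethylases of the KDM7 and KDM2 subfamilies (KDM7A, PHF8, PHF2, KDM2A and KDM2B) were followed across an RNA sequencing experiment on prostate cancer cells. They were taken by name, as the 3 KDM7 enzymes (KDM7A is also called JHDM1D, and PHF8 is KDM7B) and their 2 nearest relatives. The rule that names them uses no measured value, but it was set with earlier results of these data known. They make up 5 of the 60675 genes counted. All 5 passed the filter on low counts in every comparison.

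These enzymes remove methyl groups from histone tails with a JmjC catalytic domain that needs iron and 2-oxoglutarate. The KDM7 enzymes carry a PHD finger that binds trimethylated lysine near active gene starts, and they erase mono- and dimethyl marks linked to silencing. PHF8 and KDM7A act on histone H3, PHF8 also on histone H4, and PHF2 works with the DNA-binding protein ARID5B. The KDM2 enzymes erase histone dimethylation, carry an F-box, and bind unmethylated CpG dinucleotides through a CXXC zinc finger. KDM2B brings the polycomb complex PRC1.1 to CpG islands in this way.

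The experiment compared inhibition of KDM1A, a flavin-dependent demethylase of histone H3, with inhibition of KDM7A in the presence of androgen. Every one of the 12 libraries comes from cells in charcoal-stripped medium with R1881, a synthetic androgen, at 1 nM for 72 h. C4-2 (LNCaP:C42) is a castration-resistant line derived from LNCaP, a hormone-dependent prostate cancer line. In C4-2 there were 4 groups, namely R1881 alone, R1881 with the KDM1A inhibitor namoline at 50 µM, R1881 with the KDM7A inhibitor TCE-5002, and R1881 with both (the combination). Libraries labelled LNCaP formed 2 groups, R1881 alone and R1881 with both inhibitors. Each group held 2 libraries. TCE-5002 is given as 100 µM in the series description and at a lower dose in the study's methods, so its dose is uncertain. Besides KDM7A it also acts on PHF8 and KDM2A, so 3 of the 5 genes encode proteins the compound can reach. The data are mRNA levels, and neither enzyme activity nor histone marks were measured here.

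Library totals ran from 14791602 to 20690819 fragments assigned to genes. Replicates correlated at r = 0.996 to 0.998 over all genes, and the 2 C4-2 TCE-5002 libraries stood farthest apart, with 52 of 9897 genes over 10 counts per 1000000 assigned fragments (CPM) at least 2-fold apart against 0 to 4 genes in the other groups. In the libraries labelled LNCaP the 11 luminal prostate markers summed to 403 to 1024 CPM, against 2294 to 5110 CPM in C4-2, and the 8 mesenchymal markers to 809 to 981 CPM against 72.9 to 105 CPM. The 3 basal markers (KRT5, KRT14 and TP63) were under 1 CPM in all 12 libraries, and the 5 neuroendocrine markers summed to 63.2 to 78.2 CPM against 8.12 to 37.1 CPM. VIM alone had a mean of 694 CPM in R1881 labelled LNCaP. Single markers could run against their sum. With R1881 alone, KLK3 averaged 380 CPM labelled LNCaP against 215 CPM in C4-2, while every other luminal marker was lower there. The mesenchymal marker COL1A1 averaged 4.50 CPM against 49.7 CPM. The summed levels go against the luminal epithelial label, and the libraries are called "labelled LNCaP" throughout. The header of 1 of them, combination replicate 1, names an alignment file with namoline only, while its label gives both inhibitors. It differed at least 2-fold from combination replicate 2 in 0 of 10064 genes over 10 CPM. Member results that rest on it are given with and without it. Since RNA was taken from bulk cultures, fewer cells of a type and less RNA per cell cannot be told apart.

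KDM7A (ENSG00000006459, GRCh38 chromosome 7, 140084746 to 140177035, minus strand) shares its start region with a divergent non-coding gene, KDM7A-DT (ENSG00000260231, 140177261 to 140179640, plus strand). The 225 bases between both annotated starts are shown because the transcripts on either side were measured in the same libraries and are compared further on. They were read on the plus strand from KDM7A towards KDM7A-DT, from RefSeq (GRCh38.p14), and capitals mark CpG dinucleotides, the letters that CXXC zinc fingers bind when unmethylated.
KDM7A to KDM7A-DT, chr7:140177036-140177260: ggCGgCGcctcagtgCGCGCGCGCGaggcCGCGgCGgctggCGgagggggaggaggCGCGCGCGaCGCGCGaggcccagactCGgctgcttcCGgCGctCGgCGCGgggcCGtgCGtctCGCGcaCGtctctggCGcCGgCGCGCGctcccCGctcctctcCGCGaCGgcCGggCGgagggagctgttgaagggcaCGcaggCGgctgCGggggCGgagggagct
This stretch holds 44 CpG and has a GC content of 81.3%. CG reads the same on both strands, so each is counted once. Across the 11 RefSeq start windows of the 5 members (250 bases before and 50 after each start), the CpG count ran from 1 to 56 against a median of 14 over 35116 windows of all genes, of which 96.0% held at least 1. KDM7A had 56 CpG in its window and PHF2 had 55. KDM2A had windows of 44 and 12, KDM2B windows of 46, 33, 15 and 15, and PHF8 windows of 28, 7 and 1. Methylation of these bases was not measured.

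The other members lie on separate chromosomes. PHF8 (ENSG00000172943) is at X, 53936676 to 54048958, PHF2 (ENSG00000197724) at 9, 93576407 to 93679587, KDM2A (ENSG00000173120) at 11, 67119269 to 67258087, and KDM2B (ENSG00000089094) at 12, 121429097 to 121581015. Exons of KDM2B share 439 bases with RNF34, a ubiquitin ligase gene on the opposite strand, and 224 bases with KDM2B-DT, which had at most 20 counts in a library. Counting did not use strand, so fragments in those stretches cannot be assigned to one gene. No exon base of the other 4 members was shared. Longest transcripts of the members differed in GC content, at 38.5% for KDM7A, 51.6% for KDM2A, 52.8% for PHF8, 56.4% for PHF2 and 57.8% for KDM2B.

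Levels of the 5 genes were first compared within libraries per transcript length, in transcripts per 1000000 (TPM). In C4-2 with R1881 the order was PHF8 at 70.1 ± 0.44 TPM (SD, n = 2 here and below), PHF2 at 42.2 ± 0.49, KDM2A at 41.0 ± 0.87, KDM7A at 39.0 ± 2.26 and KDM2B at 11.2 ± 0.43. KDM2A and KDM7A overlapped in range, with KDM2A at 40.4 and 41.6 TPM and KDM7A at 40.6 and 37.4 TPM. In the C4-2 combination libraries the order changed, and KDM7A stood highest at 91.3 ± 5.76 TPM, ahead of PHF8 at 54.4 ± 2.49 TPM. KDM7A made up 19.8% and 18.5% of the summed TPM of the 5 genes in the R1881 libraries of C4-2, 12.8% and 10.8% with namoline, 14.9% and 12.5% with TCE-5002, and 36.4% and 38.7% with the combination. No combination library overlapped another C4-2 library in this share. In the libraries labelled LNCaP the highest member was PHF2, with 38.2% and 40.9% of the sum in R1881 and 34.0% and 34.2% with the combination, and KDM7A made up 10.3% to 11.8%.

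**Figure D1:**
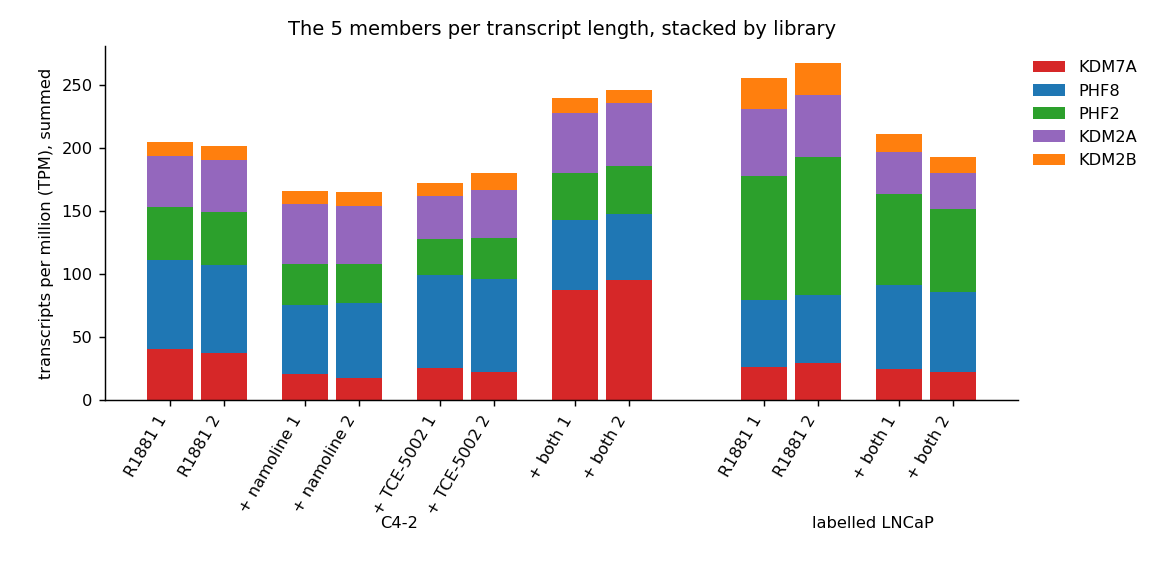
Stacked bars give the TPM of the 5 genes in each of the 12 libraries (vertical axis, summed TPM), by treatment and replicate number. The KDM7A segment is the largest in the 2 C4-2 combination libraries, where it made up 36.4% and 38.7% of the bar.

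KDM7A, the intended target of TCE-5002, had the widest spread over treatments of the 5 transcripts. Scaled by TMM over the 12 libraries, it was at 101 and 95.9 CPM in the C4-2 R1881 libraries. Namoline libraries had 63.4 and 56.4 CPM, TCE-5002 libraries 71.9 and 60.5 CPM, and combination libraries 237 and 280 CPM. Both single-inhibitor groups lay below the R1881 range and the combination group above it, with no overlap. The highest C4-2 group mean was 4.32-fold the lowest, against 1.15-fold for KDM2B, 1.29-fold for PHF2, 1.32-fold for PHF8 and 1.43-fold for KDM2A.

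Against R1881, KDM7A fell with namoline (log2 fold change -0.74, SE 0.12, adjusted p 0.000381) and with TCE-5002 (-0.60, SE 0.12, adjusted p 0.00181), and rose 2.60-fold with the combination (log2 fold change 1.38, SE 0.12, adjusted p 8.52e-07). With the single inhibitors no member passed 2-fold, as 12.1% (namoline) and 11.8% (TCE-5002) of the 17702 genes tested did, and with the combination KDM7A was the only member to do so, as 21.7% of genes did. These comparisons share the R1881 libraries. Set against the single inhibitors, the combination libraries had 4.34-fold the KDM7A of namoline (log2 fold change 2.12, SE 0.13, adjusted p 1.30e-08) and 3.92-fold that of TCE-5002 (1.97, SE 0.13, adjusted p 2.30e-08). Here 27.5% and 26.1% of genes passed with at least a 2-fold change. The interaction, which is the combination minus both single effects on the log2 scale and is 0 where they add up, was 2.71 (SE 0.18, adjusted p 2.15e-08). This puts KDM7A at the 95.4th percentile of all interaction terms, of which 35.3% passed with at least a 2-fold change. With a correction for GC content the 3 changes against R1881 were -0.62, -0.46 and 1.40. The GC content of genes and their log2 fold change were ranked together at Spearman rho 0.19 for namoline, 0.22 for TCE-5002 and -0.01 for the combination, across 17561 genes that are not independent replicates. The summed luminal markers moved too, at 3383 to 3535 CPM with R1881 and 3816 to 4258 CPM with namoline. They stood at 5050 to 5110 CPM with TCE-5002 and at 2294 to 2320 CPM with the combination. Single markers ran against these sums. With the combination KRT8 (mean 374 to 556 CPM) and KRT18 (320 to 355 CPM) rose while the other luminal markers fell. CDH1 was among those that fell with namoline (969 to 613 CPM) and with TCE-5002 (to 615 CPM). The part of these markers in the KDM7A values was not tested.

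**Figure D2:**
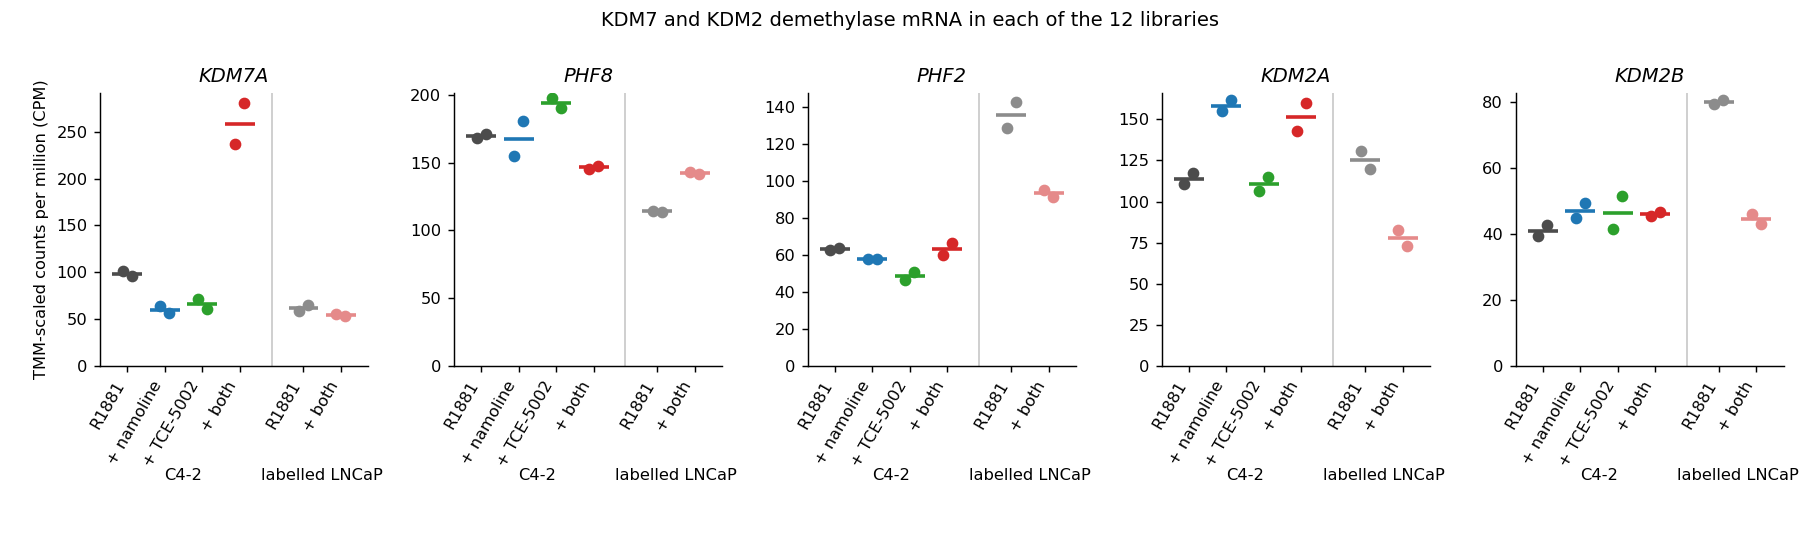
Points give the TMM-scaled CPM of each gene in each library (vertical axis from 0, scaled per gene) and horizontal lines the mean of the 2 libraries, with C4-2 to the left and libraries labelled LNCaP to the right of the grey line. KDM7A in the C4-2 combination libraries (237 and 280 CPM) lies above all other libraries.

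PHF8, which erases marks on histones H3 and H4 and binds gene starts, did not pass against R1881 in C4-2. Its levels were 168 and 171 CPM with R1881, 155 and 181 CPM with namoline, 197 and 190 CPM with TCE-5002, and 146 and 148 CPM with the combination. The namoline libraries lay on both sides of the R1881 libraries, the TCE-5002 libraries above them and the combination libraries below. None of the 3 differences from R1881 passed (log2 fold changes -0.04, 0.17 and -0.22, adjusted p 0.819, 0.229 and 0.100), although the last had an adjusted p of 0.00431 when only the 4 libraries compared were fitted. PHF8 was lower with the combination than with TCE-5002 alone (log2 fold change -0.39, SE 0.11, adjusted p 0.00627), but this call was lost without combination replicate 1 (-0.40, adjusted p 0.0521) or replicate 2 (-0.38, adjusted p 0.0739). Its interaction was -0.36 (SE 0.15, adjusted p 0.0611), and it passed without TCE-5002 replicate 1 (-0.31, adjusted p 0.0394) or replicate 2 (-0.39, adjusted p 0.0118).

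PHF2, the partner of ARID5B, was lowest with TCE-5002. It had 62.6 and 63.4 CPM with R1881, 57.7 and 57.5 CPM with namoline, 46.6 and 51.0 CPM with TCE-5002, and 59.7 and 66.1 CPM with the combination. Against R1881 it fell with TCE-5002 (log2 fold change -0.39, SE 0.11, adjusted p 0.0152), a call lost without R1881 replicate 1 (-0.40, adjusted p 0.103) or replicate 2 (-0.37, adjusted p 0.112) and when only those 4 libraries were fitted (adjusted p 0.0690). With namoline the log2 fold change was -0.15 (adjusted p 0.324), and it passed with GC correction (-0.25, adjusted p 0.0162). The combination range enclosed that of R1881 (-0.02, adjusted p 0.918). PHF2 was higher with the combination than with TCE-5002 alone (0.37, SE 0.11, adjusted p 0.0121), with an adjusted p of 0.130 without combination replicate 2. Its interaction was 0.53 (SE 0.16, adjusted p 0.0127), a call lost without R1881 replicate 1 (adjusted p 0.0563), R1881 replicate 2 (0.0673) or combination replicate 2 (0.0716).

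PHF2 has a transcribed pseudogene copy on chromosome 13, PHF2P2 (ENSG00000226057, 18946755 to 19062718, minus strand), which was looked at after the values were seen. Fragments matching both genes were not counted under the settings in the file headers, so the PHF2 values can be incomplete. PHF2P2 had 37.1 and 37.7 CPM in C4-2 with R1881, 12.9 and 16.8 CPM with namoline, 16.5 and 27.6 CPM with TCE-5002, and 17.8 and 14.5 CPM with the combination. It fell in each of the 3 comparisons with R1881 (log2 fold changes -1.35, -0.78 and -1.22, adjusted p 0.000228, 0.00892 and 0.000274). The libraries labelled LNCaP had 0.457 to 0.910 CPM of it. Summed over both genes, C4-2 had 99.7 and 101 CPM with R1881, 70.6 and 74.3 CPM with namoline, 63.1 and 78.6 CPM with TCE-5002 and 77.5 and 80.6 CPM with the combination. The summed level was therefore below R1881 in all 6 treated C4-2 libraries, while PHF2 alone was below it in 5.

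KDM2A, a CXXC enzyme that erases histone dimethylation and that TCE-5002 can also inhibit, was higher in both C4-2 groups given namoline. It had 111 and 117 CPM with R1881, 155 and 162 CPM with namoline, 106 and 115 CPM with TCE-5002, and 143 and 160 CPM with the combination. The namoline and combination groups lay above the R1881 range and the TCE-5002 group overlapped it. KDM2A rose with namoline (log2 fold change 0.45, SE 0.11, adjusted p 0.00507) and with the combination (0.40, SE 0.11, adjusted p 0.00757). The first call was lost without R1881 replicate 1 (0.41, adjusted p 0.0876) or namoline replicate 2 (0.41, adjusted p 0.0628), the second without R1881 replicate 1 (0.35, adjusted p 0.105) or combination replicate 2 (0.34, adjusted p 0.107). With TCE-5002 the change was -0.06 (SE 0.11, adjusted p 0.683). The combination exceeded TCE-5002 alone by 0.46 (SE 0.11, adjusted p 0.00241, and 0.40 with adjusted p 0.0531 without combination replicate 2), whereas its difference from namoline alone was -0.06 (SE 0.11, adjusted p 0.674). The interaction of KDM2A was 0.01 (SE 0.15, adjusted p 0.975).

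KDM2B, the PRC1.1 recruiter, was the lowest member per length in C4-2 and had the narrowest range there. Its libraries had 39.3 and 42.7 CPM with R1881, 44.8 and 49.4 CPM with namoline, 41.5 and 51.5 CPM with TCE-5002, and 45.5 and 46.7 CPM with the combination. Log2 fold changes against R1881 were 0.18, 0.16 and 0.16 (SE 0.13 each, adjusted p 0.316, 0.360 and 0.340), and none passed. The value for TCE-5002 rested on its replicates, at 0.32 (adjusted p 0.0236) without replicate 1 and -0.0013 (adjusted p 0.995) without replicate 2. With GC correction the KDM2B value for TCE-5002 was 0.02 (adjusted p 0.876). The interaction of KDM2B was -0.19 (SE 0.19, adjusted p 0.421), and 0.12 with GC correction (adjusted p 0.394).

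Counted together, 2 of the 5 members passed with namoline (1 higher, 1 lower), where 35.0% of all genes tested passed (18.7% higher, 16.3% lower). With TCE-5002 there were 2, both lower, where 36.5% passed (19.9% higher, 16.7% lower). With the combination there were 2, both higher, where 50.3% passed (24.8% higher, 25.6% lower). These shares lie near or under the background. The combination differed from namoline in 1 member, which was higher (55.9% of genes passed, 26.9% higher and 29.0% lower). It differed from TCE-5002 in 4, of which 3 were higher and 1 lower (55.1%, with 26.4% higher and 28.7% lower). In the interaction 2 passed, both above 0 (53.5%, with 25.6% higher and 27.9% lower). Leaving out R1881 replicate 1 left 1 member passing with namoline, 1 with TCE-5002, 1 with the combination and 1 interaction, while the share of all genes passing went to 17.6%, 18.2%, 33.8% and 42.1%. Without namoline replicate 2 there was 1 member with namoline (17.7% of genes), and without R1881 replicate 2 there were 1 with TCE-5002 (22.4%) and 1 interaction (43.9%). Without combination replicate 2 there were 1 with the combination (32.3%), 1 in the comparison with TCE-5002 (39.3%) and 1 interaction (42.2%). Fewer of all genes passed in each of these fits. KDM7A remained past the threshold in all of these fits.

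Among the libraries labelled LNCaP, KDM7A did not pass after the combination and 3 of the other members fell. KDM7A had 58.7 and 64.7 CPM with R1881 and 55.9 and 53.4 CPM with the combination (log2 fold change -0.12, SE 0.11, adjusted p 0.389). The combination libraries were both below the R1881 libraries, and with GC correction the change was -0.35 (adjusted p 0.00331). In this comparison GC content and log2 fold change had a Spearman rho of -0.29 across 17443 genes. KDM2B had 79.4 and 80.8 CPM with R1881 and 46.2 and 43.2 CPM with the combination (-0.78, SE 0.11, adjusted p 3.07e-07). RNF34, the gene overlapping KDM2B, fell from 64.5 and 60.4 to 37.7 and 40.2 CPM in the same libraries (-0.62, SE 0.11, adjusted p 2.15e-05). In C4-2, RNF34 was at 0.16 with namoline (adjusted p 0.341) and 0.24 with TCE-5002 (adjusted p 0.140). It was at -0.19 with the combination there (adjusted p 0.203), where KDM2B was at 0.16. How much of the KDM2B change lies in the shared exon bases was not tested. KDM2A went from 131 and 120 CPM to 82.6 and 73.1 CPM (-0.63, SE 0.11, adjusted p 6.86e-06). PHF2 went from 129 and 143 CPM to 94.9 and 91.5 CPM (-0.48, SE 0.10, adjusted p 0.000203). PHF8 rose, from 114 and 114 CPM to 143 and 142 CPM (0.38, SE 0.10, adjusted p 0.00185). With GC correction KDM2B was at -0.54 (adjusted p 1.45e-05) and KDM2A at -0.57 (adjusted p 6.08e-06). PHF2 was then at -0.29 (adjusted p 0.00665) and PHF8 at 0.47 (adjusted p 2.58e-05). Of the 5 members 4 passed, 1 higher and 3 lower, where 56.2% of 17565 genes did (28.0% higher, 28.2% lower). None reached 2-fold, where 18.7% of genes did.

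Without combination replicate 1, whose header names no TCE-5002, the values in the libraries labelled LNCaP were -0.16 for KDM7A (adjusted p 0.250), 0.36 for PHF8 (0.00281), -0.52 for PHF2 (1.88e-05), -0.73 for KDM2A (2.07e-09) and -0.84 for KDM2B (4.09e-11). The direction of change was the same for every member with and without it. Leaving out this replicate also moves the share of all genes that passes. Calls and counts in that fit are therefore not results about these genes. Over the lists described further on, the counts passing without it were 8 PRC1.1 and SCF subunits, 7 CXXC genes, 4 partners of PHF8 and PHF2, 8 writers and 7 other erasers, against 8, 6, 4, 9 and 6 with it. The luminal markers summed to 944 to 1024 CPM with R1881 and 403 to 522 CPM with the combination in these libraries, and the mesenchymal markers to 887 to 981 CPM and 809 to 835 CPM. Their part in the member values was not tested.

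The effect of the combination was then compared between both sets of libraries, as the change in C4-2 minus the change in libraries labelled LNCaP. All 5 members differed, 4 of them above 0 and 1 below, against 47.6% of 19763 genes (21.7% above, 25.9% below). The difference was 1.44 on the log2 scale for KDM7A (SE 0.13, adjusted p 3.95e-09), 0.97 for KDM2A (SE 0.13, adjusted p 9.10e-07), 0.89 for KDM2B (SE 0.13, adjusted p 6.29e-06), 0.41 for PHF2 (SE 0.13, adjusted p 0.00862) and -0.65 for PHF8 (SE 0.11, adjusted p 4.00e-05). KDM2A thus rose in one set and fell in the other, and KDM7A, which rose in C4-2, did not pass in the libraries labelled LNCaP. For PHF2 the call was lost without C4-2 combination replicate 2 (0.36, adjusted p 0.0643). Without LNCaP combination replicate 1 the 5 values were 1.47, 1.05, 0.93, 0.43 and -0.65, in the same order. At least a 2-fold difference was seen for KDM7A in the full fit, as for 25.3% of genes, and for KDM7A and KDM2A without that library.

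With R1881 alone, before any inhibitor, 4 of the 5 members differed between C4-2 and the libraries labelled LNCaP, as did 76.8% of 19763 genes (37.8% higher and 39.0% lower in C4-2). KDM7A was higher in C4-2, at 101 and 95.9 CPM against 58.7 and 64.7 CPM (log2 difference 0.73, SE 0.09, adjusted p 1.43e-07). PHF8 was higher as well, at 168 and 171 CPM against 114 and 114 CPM (0.63, SE 0.08, adjusted p 1.68e-07). PHF2 was lower in C4-2, at 62.6 and 63.4 CPM against 129 and 143 CPM (-1.05, SE 0.09, adjusted p 1.41e-10), one of the 50.5% of genes past 2-fold. PHF2P2 went the other way (6.10, SE 0.23, adjusted p 2.52e-17), and PHF2 with PHF2P2 summed to 99.7 and 101 CPM in C4-2 and to 129 and 143 CPM in the libraries labelled LNCaP. KDM2B was lower in C4-2 (-0.91, SE 0.09, adjusted p 4.31e-09). KDM2A did not pass (-0.08, SE 0.09, adjusted p 0.411). The marker levels given above differ between the same libraries, and line identity and these differences cannot be told apart.

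**Figure D3:**
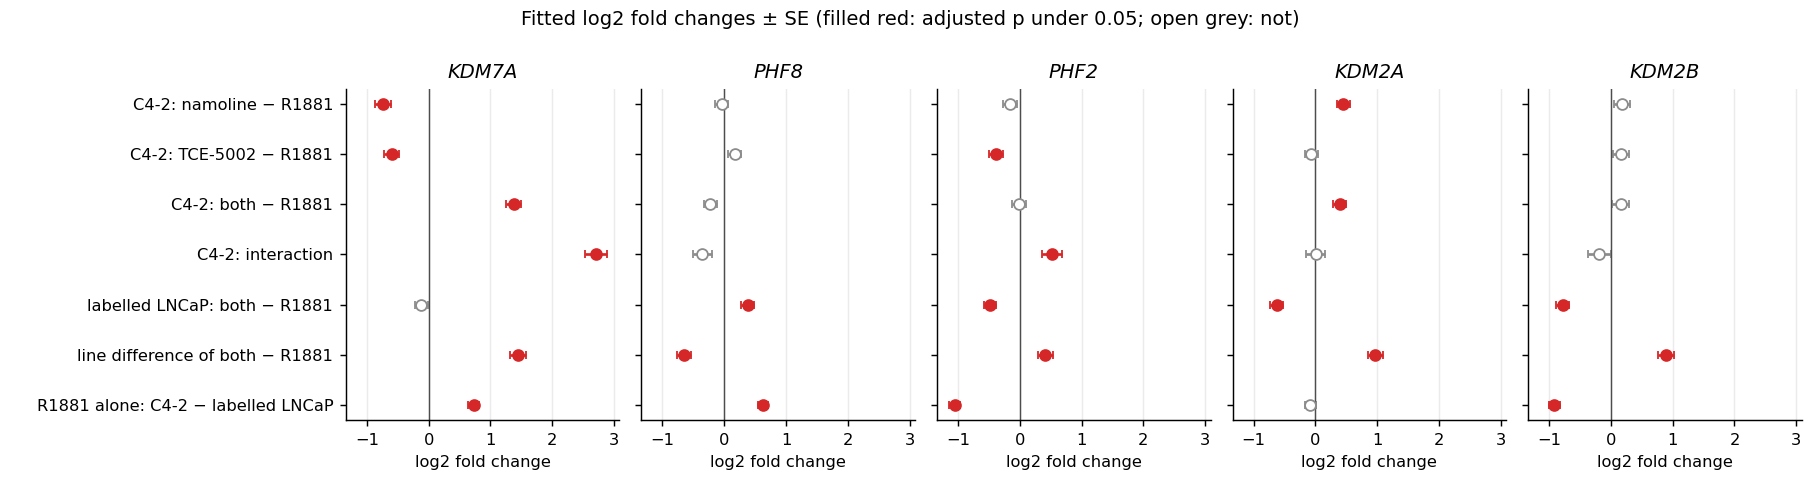
Each panel gives for 1 gene the fitted log2 fold change (horizontal axis) with its standard error in 7 comparisons, in filled red where the edgeR adjusted p was under 0.05 and open grey where it was not. KDM7A lies at -0.74 and -0.60 for the single inhibitors, at 1.38 for both and at 2.71 for the interaction.

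Ranked over all 6 groups, KDM7A was lowest in the combination libraries labelled LNCaP (mean 54.6 CPM), followed by C4-2 with namoline (59.9), R1881 labelled LNCaP (61.7), C4-2 with TCE-5002 (66.2), C4-2 with R1881 (98.5) and the C4-2 combination (258). C4-2 with namoline, R1881 labelled LNCaP and C4-2 with TCE-5002 overlapped in range from neighbour to neighbour, while the last 2 groups stood clear of all others. PHF8 ran from 114 CPM in R1881 labelled LNCaP to 194 CPM in C4-2 with TCE-5002, and KDM2A from 77.8 CPM in the combination labelled LNCaP to 158 CPM in C4-2 with namoline. PHF2 ran from 48.8 CPM in C4-2 with TCE-5002 to 136 CPM in R1881 labelled LNCaP. KDM2B had 41.0 to 47.1 CPM in 5 of the groups and 80.1 CPM in R1881 labelled LNCaP.

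KDM7A-DT, the divergent neighbour across the CpG-rich stretch printed above, did not follow KDM7A in the combination libraries. It had 14.2 and 13.4 CPM in C4-2 with R1881, 11.4 and 10.2 CPM with namoline, 14.6 and 12.5 CPM with TCE-5002, and 11.0 and 8.62 CPM with the combination. The combination libraries lay below the R1881 libraries, where those of KDM7A lay above. The log2 fold change of KDM7A-DT with the combination was -0.50 (SE 0.17, adjusted p 0.0269), a call lost without R1881 replicate 1 (-0.47, adjusted p 0.133), R1881 replicate 2 (-0.54, adjusted p 0.0727) or combination replicate 2 (-0.31, adjusted p 0.287) and with DESeq2 (adjusted p 0.0622). Its interaction was -0.08 (SE 0.25, adjusted p 0.804), against 2.71 for KDM7A. Counts of KDM7A-DT in C4-2 were between 139 and 303 in a library. It was chosen for description after its values were seen.

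**Figure D4:**
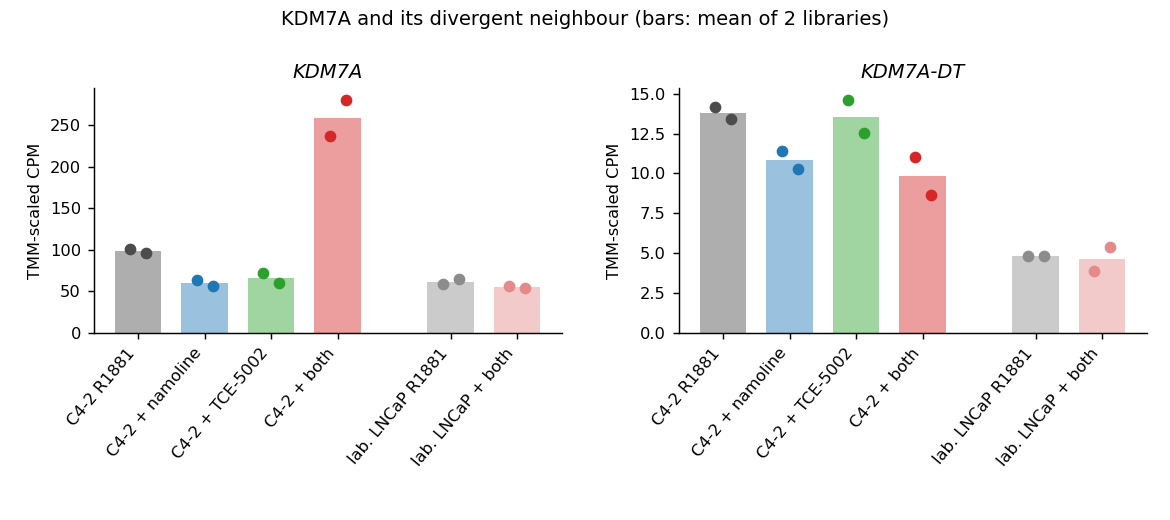
Bars give the mean of 2 libraries and points the single libraries of KDM7A (left) and KDM7A-DT (right), in TMM-scaled CPM on separate vertical axes from 0. In the C4-2 combination libraries KDM7A is at 237 and 280 CPM and KDM7A-DT at 11.0 and 8.62 CPM.

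KDM1A, the target of namoline, rose with namoline in C4-2, from 75.0 and 73.1 CPM to 115 and 128 CPM (log2 fold change 0.69, SE 0.12, adjusted p 0.000392). With TCE-5002 it had 109 and 90.0 CPM (0.41, SE 0.12, adjusted p 0.0134), a call lost without R1881 replicate 1 (adjusted p 0.0926) or replicate 2 (adjusted p 0.103). With the combination it had 70.7 and 73.4 CPM (-0.05, SE 0.12, adjusted p 0.732). Its interaction was -1.15 (SE 0.16, adjusted p 3.79e-05), opposite in sign to that of KDM7A. It rose from 121 and 111 CPM to 140.1 and 164 CPM in the libraries labelled LNCaP (0.45, SE 0.11, adjusted p 0.000509).

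Partners of the members were described from lists, by counts. They are to be read against the share of all genes that passed in the same comparison, which was 35.0% with namoline (18.7% higher, 16.3% lower), 36.5% with TCE-5002 (19.9% and 16.7%), 50.3% with the combination in C4-2 (24.8% and 25.6%) and 56.2% in the libraries labelled LNCaP (28.0% and 28.2%). Leaving out a library moves these shares too. A list count given for such a fit therefore describes the fit and is not a result about the listed genes. KDM2B and KDM2A are linked with 11 PRC1.1 and SCF subunits, of which 3 rose and 3 fell with the combination in C4-2 (median log2 fold change 0.12, against -0.03 over all genes). PCGF1, the subunit that defines PRC1.1, rose from 11.0 ± 0.09 to 26.9 ± 2.12 CPM (1.27, SE 0.15, adjusted p 8.65e-06). BCOR, the scaffold that holds PCGF1, fell from 117 ± 1.46 to 72.5 ± 1.44 CPM (-0.70, SE 0.10, adjusted p 7.61e-05). BCOR also fell with TCE-5002 (-0.60, adjusted p 0.000500). Without any 1 of the 4 libraries compared, 2 to 3 of the 11 passed. Among libraries labelled LNCaP 4 rose and 4 fell (5 in all without R1881 replicate 1), with RBX1, the RING subunit of SCF ligases, highest (0.94, adjusted p 1.33e-07) and BCORL1, the relative of BCOR, lowest (-0.72, adjusted p 3.38e-06). With namoline 1 of 11 passed, RING1, a ubiquitin ligase of polycomb complexes (-0.43, adjusted p 0.0128, lost without either R1881 library or namoline replicate 2). With TCE-5002 1 rose and 2 fell, with RBX1 the highest (0.53, adjusted p 0.0101, lost without R1881 replicate 2 or TCE-5002 replicate 1). That count was 1 without R1881 replicate 2 and 5 without TCE-5002 replicate 2.

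Among 10 genes with a CXXC zinc finger like that of the KDM2 enzymes, 9 were tested in C4-2, and 3 rose and 1 fell with the combination (median 0.08). KMT2A, a methyltransferase of histone H3, rose from 191 ± 18.2 to 373 ± 23.2 CPM (0.95, SE 0.12, adjusted p 1.96e-05), and TET1, a DNA demethylation enzyme, fell from 1.84 ± 0.51 to 0.460 ± 0.21 CPM (-1.99, SE 0.43, adjusted p 0.00148). DNMT1, the maintenance DNA methyltransferase, rose with namoline from 92.4 ± 2.32 to 196 ± 31.8 CPM (1.06, SE 0.13, adjusted p 2.49e-05). It was also the highest with TCE-5002 (0.39, adjusted p 0.0277, lost without R1881 replicate 1, R1881 replicate 2 or TCE-5002 replicate 2) and in the libraries labelled LNCaP (0.37, adjusted p 0.00344, lost without R1881 replicate 1), where CXXC4, an inhibitor of Wnt signalling, was lowest (-1.33, adjusted p 0.000129). KMT2A was the lowest with namoline (-0.35, adjusted p 0.0394, lost without any 1 of the 4 libraries) and with TCE-5002 (-0.51, adjusted p 0.00463, lost without R1881 replicate 1). In all, 1 rose and 1 fell with namoline (1 without any 1 of the 4 libraries), 2 rose and 3 fell with TCE-5002 (0 without R1881 replicate 1 and 1 without R1881 replicate 2), and 2 rose and 4 fell of 10 in the libraries labelled LNCaP.

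Partners of PHF8 and PHF2 numbered 6, of which 5 were tested in C4-2. ARID5B, the DNA-binding partner of PHF2, had 67.6 ± 0.18 CPM with R1881 and fell with namoline to 42.5 ± 1.08 CPM (-0.69, SE 0.12, adjusted p 0.000531), with TCE-5002 to 25.5 ± 0.52 CPM (-1.43, SE 0.12, adjusted p 1.83e-06) and with the combination to 14.1 ± 1.31 CPM (-2.27, SE 0.13, adjusted p 1.39e-08). The combination range of PHF2 itself enclosed that of R1881. E2F1, the cell cycle factor with which PHF8 acts at promoters, rose from 9.41 ± 1.18 to 57.3 ± 15.3 CPM with namoline (2.58, SE 0.19, adjusted p 1.82e-07) and to 31.7 ± 4.06 CPM with TCE-5002 (1.73, SE 0.19, adjusted p 1.15e-05). HCFC1, a cofactor of E2F proteins, was the highest with the combination (0.61, SE 0.14, adjusted p 0.00256). In all, 3 rose and 1 fell with namoline, 2 rose and 1 fell with TCE-5002 (5 passed without either TCE-5002 library), and 2 rose and 1 fell with the combination (median 0.27). Of the 6, 0 rose and 4 fell in the libraries labelled LNCaP, with UBTF, a factor of ribosomal RNA transcription, lowest at 127 ± 3.51 against 241 ± 7.54 CPM (-0.87, SE 0.10, adjusted p 1.26e-08).

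Of 13 methyltransferases of the histone lysines on which the members act, 5 rose and 1 fell with the combination in C4-2 (median -0.02). Not each of them writes a mark that a member erases. EZH1 was the highest, from 41.5 ± 1.25 to 100.4 ± 4.43 CPM (1.26, SE 0.11, adjusted p 9.19e-07), and KMT5A, which writes the histone H4 mark that PHF8 erases, the lowest (-0.43, adjusted p 0.00497, lost without R1881 replicate 1 or either combination library). NSD3, a writer of the mark that KDM2A erases, was lowest with each single inhibitor, from 109 ± 6.71 CPM to 74.9 ± 0.35 CPM with namoline (-0.57, adjusted p 0.00127) and to 68.6 ± 7.34 CPM with TCE-5002 (-0.70, adjusted p 0.000281). SUV39H1 was highest with namoline (1.09, adjusted p 0.00257, lost without namoline replicate 2) and SUV39H2 with TCE-5002 (0.58, adjusted p 0.0121, lost without either R1881 library or TCE-5002 replicate 1), both writers of a heterochromatin mark on histone H3. In all, 3 rose and 2 fell with namoline (2 to 3 passed without any 1 library) and 2 rose and 5 fell with TCE-5002 (2 passed without R1881 replicate 1). In the libraries labelled LNCaP 2 rose and 7 fell (median -0.39, against 0.00 over all genes), with SUV39H1 at 16.2 ± 1.77 against 51.5 ± 0.82 CPM (-1.61, SE 0.13, adjusted p 4.51e-12) and EZH1 highest (0.44, adjusted p 0.00349, lost without R1881 replicate 2).

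Other erasers at these histone lysines numbered 11, with 10 tested. With the combination in C4-2, 3 rose and 2 fell (3 passed without R1881 replicate 2 or combination replicate 2), with KDM3A, a demethylase at the same H3 lysine as the KDM7 enzymes, highest at 153 ± 14.6 against 75.0 ± 0.51 CPM (1.02, SE 0.11, adjusted p 3.59e-06). KDM4C was lowest at 14.3 ± 1.23 against 29.3 ± 1.95 CPM (-1.04, SE 0.14, adjusted p 3.17e-05). JMJD1C, a relative of KDM3A, was lowest with namoline (-0.99, SE 0.13, adjusted p 6.27e-05) and with TCE-5002 (-0.62, SE 0.13, adjusted p 0.00229), and KDM4B highest with TCE-5002 (0.63, SE 0.14, adjusted p 0.00293). In all, 3 rose and 5 fell with namoline, 3 rose and 2 fell with TCE-5002, and 4 rose and 2 fell in the libraries labelled LNCaP (3 passed without R1881 replicate 1), where KDM4D was lowest (-1.60, SE 0.17, adjusted p 9.78e-10) and KDM4C highest (0.50, adjusted p 0.0179, lost without R1881 replicate 1 or combination replicate 2).

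**Figure D5:**
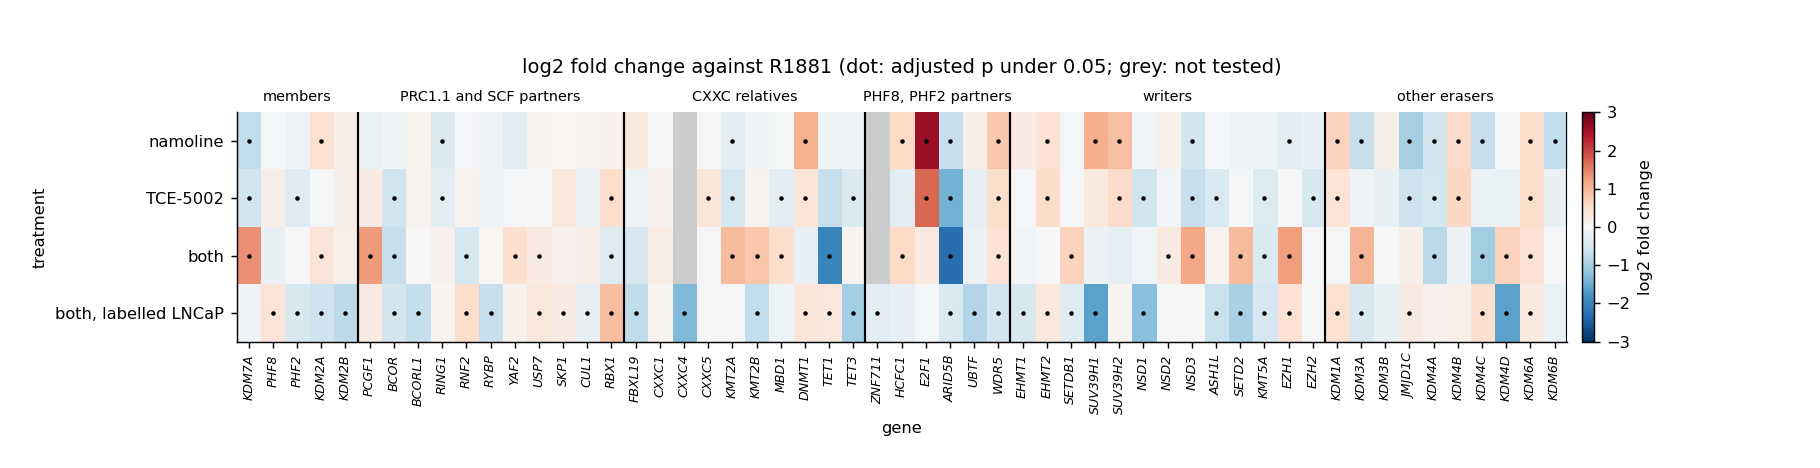
Colours give the log2 fold change against R1881 (red higher, blue lower) of the 5 members and the genes of 5 lists (horizontal axis) under 4 treatments (vertical axis), with a dot where the adjusted p was under 0.05 and grey where a gene was not tested. KDM7A is blue with each single inhibitor in C4-2 and red with both, and ARID5B is blue in all 4 rows.

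Genes with a pattern like that of a member were ranked by Pearson r of log2(CPM + 1) over the 8 C4-2 libraries among 9491 protein-coding genes of at least 10 CPM, as a description. Closest to KDM7A were POLR3C, PIKFYVE, RICTOR, DNAJB9 and RNMT (r = 0.995 to 0.996), and 972 genes reached an r of 0.9. DNAJB9 had mean levels of 84.0 CPM with R1881, 41.9 with namoline, 48.4 with TCE-5002 and 261 with the combination. RICTOR had 58.8, 46.4, 46.2 and 103 CPM. The 8 libraries share 4 treatments, so such values follow the group means. The GC content of these 5 genes was 36.5% to 48.5%, against 38.5% for KDM7A. Closest to PHF8 were ALDH6A1 and MERTK (r = 0.957 and 0.956), to PHF2 PTMS and EP300 (0.978 and 0.977), to KDM2A ACTN4 and SETD6 (0.979 and 0.978) and to KDM2B TMUB1 and LMF2 (0.987 and 0.982). Among the members themselves r ran from -0.76 (KDM7A with PHF8) to 0.59 (KDM7A with PHF2).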

How the data were processed

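Polyadenylated RNA of 12 libraries was sequenced in paired ends. Per the labels and file headers, the authors trimmed reads with Trim Galore, aligned them to GRCh38 with STAR and deposited whole fragment counts per gene from featureCounts 1.5.0-p1 with Ensembl 83 annotation, without a strand option, so overlapping antisense genes are not separated and fragments matching several genes are left out. Groups came from sample titles, since a protocol field describing siRNA did not match them. Here low counts were dropped by filterByExpr and libraries scaled by TMM. Contrasts were fitted in edgeR 4.0.16 by quasi-likelihood, with limma 3.58.1 under R 4.3.3. P-values were adjusted for every gene in the fit (Benjamini-Hochberg), and a gene passed under 0.05. C4-2 contrasts used all 8 C4-2 libraries, the contrast in libraries labelled LNCaP its 4, and contrasts between lines the 8 with R1881 alone or both inhibitors. The SE of a log2 fold change was taken from its F value. CPM used TMM factors over all 12 libraries, and TPM the exon lengths in the files. The members and lists were chosen with earlier results of these data known. From each list the highest and lowest passing gene was named. Nothing in the labels says whether replicates were separate cultures, though the study's methods speak of biological replicates, so p-values measure the spread between these libraries. Steps were tested on simulated counts. These were drawn without the GC trends and same-number correlations seen between replicates here, so that test does not bear on them. Alternatives were RLE scaling, no filter, DESeq2 1.42.0, a replicate block, GC correction, fits on 4 libraries and leaving out each library.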

Additional observations from a re-analysis of the deposited data

Results flagged for a closer look

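The combination effect differed between C4-2 and the libraries labelled LNCaP in a test of the difference itself for all 5 members. On the log2 scale, as C4-2 minus labelled LNCaP, it was 1.44 for KDM7A, -0.65 for PHF8, 0.41 for PHF2, 0.97 for KDM2A and 0.89 for KDM2B. By the same test 47.6% of all genes differed. Each group held 2 libraries, too few to test single libraries as outliers.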

How the results depend on the processing

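Of the 45 member results (5 genes in 9 comparisons), 26 passed. Under RLE scaling, no filter, DESeq2, the replicate block, GC correction and fits on 4 libraries they gave 171 alternative values, of which 169 kept their direction and side of the threshold. The other 2 were PHF2 with TCE-5002 (-0.39, adjusted p 0.069) and PHF2 with the combination against TCE-5002 (0.37, adjusted p 0.0576) in fits on only the 4 libraries compared. KDM7A remained past the threshold in all C4-2 comparisons under every alternative. Results that had not passed did so for PHF8 with the combination on 4 libraries (-0.23), and with GC correction, without and with the block, for PHF2 with namoline (-0.25 and -0.25), PHF2 in the combination against namoline (0.28 and 0.28) and KDM7A in the libraries labelled LNCaP (-0.35 and -0.35). The cause was not tested.

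Some values that had not passed changed sign. PHF2 with the combination was 0.015 under RLE and DESeq2 and 0.029 and 0.030 under GC correction without and with the block. In the combination against namoline, KDM2A was 0.021 and 0.020 under GC correction without and with the block, and KDM2B was 0.020 under RLE and DESeq2, 0.14 under GC correction without and with the block and 0.0058 on 4 libraries. Against TCE-5002, KDM2B was 0.033 under RLE and DESeq2, 0.0066 with no filter, 0.0014 with the block and 0.18 under GC correction without and with the block. The KDM2B interaction, at -0.19 in the main fit, was 0.12 under GC correction without and with the block.

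Ranges of log2 values over fits that each left out 1 library are given for results whose call or sign changed, and for KDM7A and KDM2B in further comparisons. With namoline, PHF8 ran from -0.16 to 0.043, KDM2A from 0.41 to 0.50 and KDM2B from 0.10 to 0.25. With TCE-5002, PHF2 ran from -0.46 to -0.32 and KDM2B from -0.0013 to 0.32. With the combination, PHF2 ran from -0.063 to 0.044, KDM2A from 0.34 to 0.46 and KDM2B from 0.092 to 0.22. In the combination against namoline, KDM2A ran from -0.093 to 0.0055 and KDM2B from -0.068 to 0.053. Against TCE-5002, PHF8 ran from -0.42 to -0.37, PHF2 from 0.31 to 0.44, KDM2A from 0.40 to 0.52 and KDM2B from -0.16 to 0.16. Interactions ran from -0.45 to -0.24 for PHF8, 0.48 to 0.58 for PHF2, -0.053 to 0.063 for KDM2A and -0.32 to -0.029 for KDM2B. The PHF2 difference between lines ran from 0.36 to 0.60. KDM7A ran from -0.85 to -0.67 with namoline, -0.72 to -0.48 with TCE-5002, 1.28 to 1.48 with the combination, 2.59 to 2.86 for the interaction and -0.20 to -0.038 in the libraries labelled LNCaP.

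Replicate numbers were not taken to pair the samples, since not every correlation of same-numbered deviations was over 0.1. In C4-2, 5 of the 6 were 0.14 to 0.44 and namoline with the combination was -0.02, and it was 0.06 in the libraries labelled LNCaP. The labels give no shared batch, so whether same-numbered C4-2 libraries share one is not known. Replicate 1 minus replicate 2 was also ranked against the GC content of genes. For C4-2, rho was -0.55 in R1881, -0.51 in namoline, -0.81 in TCE-5002 and -0.25 in the combination group. Groups labelled LNCaP had a rho of 0.18 (R1881 alone) and 0.63 (both inhibitors). The source of these GC trends was not tested. With the replicate number as a block, the PHF8 interaction passed (-0.36, adjusted p 0.0391), and no other member call changed. Counts of genes past 2-fold stayed within 1.5 times in all 104 alternatives, but counts of genes passing at any fold did not. With namoline they went from 6195 to 3270 without R1881 replicate 1 and 3338 without namoline replicate 2, and with TCE-5002 from 6464 to 3397 and 4213 without R1881 replicate 1 and 2. CPM on plain library totals moved 13 of 30 member means by more than their SD, and 56 of 624 counts of list genes passing moved by over 1.5 times. Of the 5 genes closest to KDM7A over the C4-2 libraries, 0 were among the closest 5 over all 12 libraries after centring each line. With 2 libraries a group, small differences in PHF8, PHF2, KDM2A and KDM2B may go undetected.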

Other observations

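KDM6A, an eraser of histone H3 marks on the list of other erasers, passed in the same direction in all 4 comparisons with R1881, and was picked out after its values were seen. Its log2 fold changes were 0.53 with namoline, 0.53 with TCE-5002, 0.43 with both in C4-2, and 0.30 with both in libraries labelled LNCaP. WDR5, a partner of PHF8 picked out in the same way, rose in the 3 C4-2 comparisons (0.82, 0.52 and 0.43), which share the R1881 libraries, and fell in the libraries labelled LNCaP (-0.58).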
